A study of Mus musculus with 9 samples.

Results

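The genes described here mark pericytes and vascular smooth muscle cells, the mural cells that wrap the endothelial tubes of blood vessels. They were chosen as the rows of the deposited count table whose symbol is Pdgfrb, Rgs5, Cspg4, Mcam, Abcc9, Kcnj8, Acta2, Myh11, Tagln or Cnn1, which makes 10 of 49568 gene rows. All 10 had counts in all 9 libraries, and all 10 passed the expression filter that kept 14989 genes for testing.

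The data are total RNA-seq counts from a calf muscle, the gastrocnemius. The mice were C57Bl6J and about 8 weeks old. CTL libraries came from 3 mice that received 0 Gy. RL libraries came from the irradiated limb of 3 other mice, which were given 8.2 Gy in each of 3 sessions at 4 weeks of age and examined 3 weeks after irradiation, and CL libraries came from the opposite limb of the same 3 mice. The study asked which transcripts radiation changed, and its title points to damage of prepubertal muscle stem cells that carry Pax7. Replicates within a group are separate animals, and a CL and an RL library that carry the same number share a mouse. No genotype other than the strain is labelled, and whole muscle was used, so vessels contribute RNA together with muscle fibres and every other cell of the tissue. In bulk RNA of this kind, fewer cells of a type and less RNA per cell cannot be told apart.

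Library totals ran from 30.8 to 44.6 M counts, and mitochondrially encoded genes took 31.1% to 51.8% of them. Mature muscle fibre markers summed to between 47460 and 73470 CPM (counts scaled to a total of 1e6 per library) in every library, none of the 8 being at 0, which matches the labelled tissue. CL 1 stood apart, and its median correlation with the other 8 was 0.969. It held 158.4 CPM of Postn, a matrix protein of activated fibroblasts, and 33.0 CPM of Myh3, the embryonic myosin of newly formed fibres, against 14.9 and 21.9 CPM of Postn and 1.60 and 3.45 CPM of Myh3 in CL 2 and CL 3. For several of the 10 genes, log2 fold changes that rest on the CL group are therefore also given without CL 1. Counts over lists include CL 1, as do all other values unless stated. RL 1, from the same mouse, held 52.5 CPM of Postn and 9.78 CPM of Myh3. RL 2 and RL 3 held 15.2 and 16.9 CPM of Postn and 1.52 and 1.65 CPM of Myh3.

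Pericytes sit on capillaries under the basement membrane, and smooth muscle cells ring arterioles and larger vessels. Endothelial cells recruit both by secreting platelet-derived growth factor B (PDGF-B), which binds the receptor encoded by Pdgfrb. Mural cells set vessel tone through ATP-sensitive potassium channels and a contractile apparatus of smooth muscle actin and myosin, and in skeletal muscle pericytes also lie close to the stem cells and can contribute to muscle fibres.

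The main result is that Pdgfrb was the only gene of the 10 called lower in RL against CTL. Kcnj8 was fitted lower still, at -0.64, without passing, and several other members were also below the controls. Rgs5, another pericyte gene, and Acta2, smooth muscle actin, were measured at about their control levels. Pdgfrb also lay below every control in CL, and it was not called in RL against CL. Of the 10 genes, 1 fell in RL against CTL, 0 rose and 9 did not pass the test. Over all genes tested 0.514% were called in this comparison, 0.180% as lower and 0.334% as higher. Counts of all 9 libraries entered edgeR's quasi-likelihood F test, with Benjamini-Hochberg adjustment over the 14989 genes and a threshold of 0.05. DESeq2 called 1.97% of 16741 genes and, of the 10, Pdgfrb. Against 10.2% of all genes, 5 of the 10 had all 3 RL libraries below all 3 CTL libraries, namely Pdgfrb, Abcc9, Kcnj8, Myh11 and Tagln, and 0 had them all above, against 10.5% of all genes. At an unadjusted p under 0.05, 4 were lower (Pdgfrb, Kcnj8, Abcc9 and Myh11), against 5.45% of all genes, and 0 were higher, against 6.57%. The fitted value was below 0 for 7 of the 10 and for 51.5% of all genes. The median log2 fold change of the 10 was -0.19, beside -0.01 for all genes tested. These counts describe the list, and no test of the list was made.

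**Figure D1:**
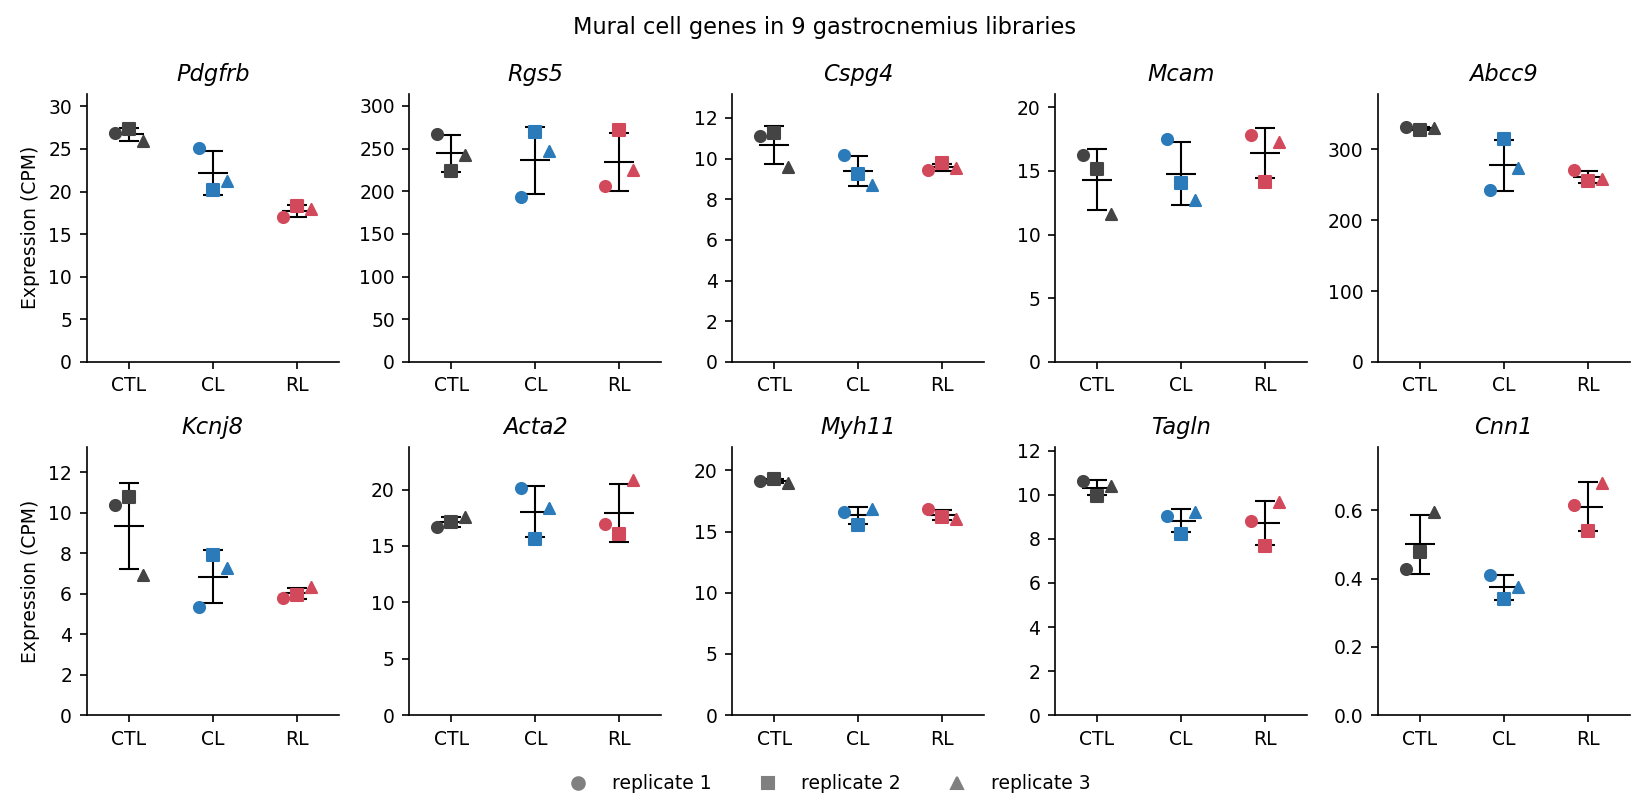
Expression of the 10 mural cell genes in each library, in CPM scaled by the trimmed mean of M values on a linear axis from 0, with the horizontal bar at the group mean and whiskers of 1 SD (3 libraries a group). Markers give the replicate number, which pairs CL and RL libraries of a mouse but does not pair CTL libraries. Pdgfrb shows 3 separate levels of group means, 26.7, 22.2 and 17.8 CPM, whereas the groups overlap for Rgs5, Cspg4, Acta2 and Mcam.

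Pdgfrb encodes the beta receptor for platelet-derived growth factor, a receptor tyrosine kinase of mural cells that fibroblasts also carry (GRCm38 chromosome 18, 61045150 to 61085061, plus strand). It measured 26.9, 27.4 and 25.9 CPM in CTL 1 to 3, 25.1, 20.2 and 21.2 CPM in CL 1 to 3, and 17.0, 18.4 and 17.9 CPM in RL 1 to 3. Every RL library lay below every CL library and every CL library below every CTL library, and the lowest CL value belonged to CL 2. The group means were 26.7 ± 0.751, 22.2 ± 2.60 and 17.8 ± 0.704 CPM in CTL, CL and RL (SD, n = 3 each), so the RL mean was 33.6% below that of CTL. The RL against CTL log2 fold change was -0.59 ± 0.10 (SE, 95% interval -0.82 to -0.36), with an edgeR adjusted p = 0.0361 and a DESeq2 adjusted p = 0.000345. It was lower in 3 of 3 RL libraries. In the authors' deposited table the same comparison of Pdgfrb has a log2 fold change of -0.50 and an adjusted p of 0.0191.

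The Pdgfrb call was close to the threshold, and its size moved little. Under the 16 alternative settings its log2 fold change ran from -0.62 to -0.56, and 9 of them kept the call. The call was lost in edgeR without CTL 1, 2 or 3 (adjusted p = 0.145, 0.139 and 0.125), without RL 1, 2 or 3 (adjusted p = 0.187, 0.0734 and 0.215) and without CL 3 (adjusted p = 0.0780). It was kept without CL 1 (adjusted p = 0.00403) and without both limbs of the mouse that gave CL 1 and RL 1 (adjusted p = 0.0186). Csf1r, a macrophage receptor gene that lies 15.5 kb from Pdgfrb on chromosome 18, had a log2 fold change of 0.55 in RL against CTL (edgeR adjusted p = 0.386), so the neighbouring gene was measured on the other side of 0.

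Rgs5, Cspg4 and Mcam are the other surface and signalling markers of the set, and none passed the test. Rgs5 encodes a regulator that shortens G protein signalling and is among the most used pericyte transcripts (chromosome 1, 169655501 to 169695813, plus strand). It measured 267.3, 223.7 and 242.8 CPM in CTL, 192.7, 269.1 and 246.7 CPM in CL, and 206.1, 271.3 and 225.4 CPM in RL. The highest and the lowest of the 9 values, RL 2 and CL 1, both came from irradiated mice, and the groups overlapped throughout. Its RL against CTL log2 fold change was -0.06, with a 95% interval from -0.39 to 0.26, and the edgeR adjusted p was 0.920. This interval does not reach the -0.59 fitted for Pdgfrb, but it overlaps the Pdgfrb interval of -0.82 to -0.36. The difference between the genes was not tested in that fit.

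Cspg4 encodes the proteoglycan NG2 on the surface of pericytes (chromosome 9, 56865033 to 56899870, plus strand), and its group means were 10.7 ± 0.934, 9.38 ± 0.750 and 9.57 ± 0.183 CPM in CTL, CL and RL (SD, n = 3). Its RL against CTL log2 fold change was -0.15 (95% interval -0.39 to 0.08, edgeR adjusted p = 0.636). CTL 3, at 9.58 CPM, lay among the RL values of 9.42 to 9.77 CPM. Mcam encodes the adhesion molecule CD146, which pericytes, smooth muscle and endothelial cells carry (chromosome 9, 44134469 to 44142727, plus strand), and measured 16.2, 15.1 and 11.6 CPM in CTL against 17.8, 14.2 and 17.2 CPM in RL. The groups overlapped, and its log2 fold change was 0.20 (95% interval -0.14 to 0.54, edgeR adjusted p = 0.689). Mcam was thus measured on the opposite side of 0 from Pdgfrb.

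Abcc9 and Kcnj8 encode the subunits of the ATP-sensitive potassium channel of mural cells and lie next to each other on chromosome 6, both on the minus strand with 16.2 kb between them. Abcc9 (142587862 to 142702315) encodes the sulfonylurea receptor SUR2, which muscle fibres also make, and Kcnj8 (142564837 to 142571614) the pore subunit Kir6.1. Abcc9 measured 331.7, 327.2 and 330.1 CPM in CTL, 242.2, 314.9 and 274.2 CPM in CL, and 270.4, 254.6 and 257.3 CPM in RL. The 3 control values lay within a coefficient of variation of 0.686%, the smallest among the 10 genes, and all 6 values from irradiated mice were below them. The RL against CTL log2 fold change was -0.34 ± 0.12 (SE, 95% interval -0.59 to -0.08), and Abcc9 did not pass (edgeR adjusted p = 0.246, DESeq2 adjusted p = 0.0705).

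Kcnj8 measured 10.4, 10.8 and 6.93 CPM in CTL, 5.37, 7.94 and 7.25 CPM in CL, and 5.79, 5.93 and 6.34 CPM in RL. The RL values were close together and all below CTL, whereas CTL 3 lay apart from the other controls and inside the range of CL, giving a control coefficient of variation of 22.6%, the largest of the 10. The log2 fold change of -0.64 ± 0.18 (SE, 95% interval -1.03 to -0.24) was the lowest of the set, and it did not pass (edgeR adjusted p = 0.151, DESeq2 adjusted p = 0.0812). In the authors' deposited table the adjusted p of Kcnj8 is 0.0780. Kcnj8 passed in edgeR without CL 1 (adjusted p = 0.0408) and with no filter on low counts (adjusted p = 0.00168). It had 2 passing settings of 16, and its log2 fold change ran from -0.82 to -0.53 over all of them.

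The promoter windows of this channel pair and of Acta2 are shown because Abcc9 and Kcnj8 share a locus and a direction in RL, while Acta2 is a textbook target of serum response factor. RefSeq windows (GRCm38.p6) of 300 bases, 250 before and 50 after the start of each gene, were found for 7 of the 10 genes, which leaves Pdgfrb, Myh11 and Tagln. Capitals mark the matched motifs, and each sequence is written 5′ to 3′ on the strand of its gene. They are Abcc9 at chr6:142702225-142702524, Kcnj8 at chr6:142571565-142571864 and Acta2 at chr19:34255324-34255623, all minus strand.
Abcc9: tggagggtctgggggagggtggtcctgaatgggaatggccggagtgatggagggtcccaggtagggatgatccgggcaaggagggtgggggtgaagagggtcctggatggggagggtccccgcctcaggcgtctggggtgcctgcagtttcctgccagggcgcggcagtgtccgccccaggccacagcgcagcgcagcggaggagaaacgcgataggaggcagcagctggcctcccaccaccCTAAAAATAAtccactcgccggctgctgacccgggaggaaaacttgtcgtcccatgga
Kcnj8: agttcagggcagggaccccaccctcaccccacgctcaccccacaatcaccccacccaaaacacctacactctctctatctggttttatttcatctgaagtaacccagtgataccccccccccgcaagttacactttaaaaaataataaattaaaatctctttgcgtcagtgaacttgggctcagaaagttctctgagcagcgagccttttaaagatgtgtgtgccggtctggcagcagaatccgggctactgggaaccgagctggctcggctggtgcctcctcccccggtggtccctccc
Acta2: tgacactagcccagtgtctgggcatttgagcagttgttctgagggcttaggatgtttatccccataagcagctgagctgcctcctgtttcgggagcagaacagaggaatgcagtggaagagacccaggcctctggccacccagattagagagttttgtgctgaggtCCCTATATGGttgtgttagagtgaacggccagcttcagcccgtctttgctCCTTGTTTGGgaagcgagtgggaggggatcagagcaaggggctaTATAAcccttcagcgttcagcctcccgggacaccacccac
Searched on both strands were the CArG box, to which this factor (SRF) binds, with an exact core and with 1 departure in the core, the MEF2 box and TATAA. An exact CArG box is in 1.63% of 32851 RefSeq windows and in 0 of the 7. With 1 departure allowed it is in 9.98% of windows, and of the 7 only Acta2 holds it, at CCCTATATGG and CCTTGTTTGG, whose first bases are 84 and 34 before the start. The MEF2 box is in 3.19% of windows, and of the 7 only Abcc9 holds one, CTAAAAATAA, which begins 8 bases before the start. TATAA is in 24.9% of windows, and of the 7 only Acta2 holds it, beginning 10 bases after the start given in the table. Kcnj8 holds none of the 4 motifs in these letters, and the matches describe the windows only.

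Of the contractile genes, Myh11 and Tagln were measured below the controls in both limbs of the irradiated mice, Cnn1 in the opposite limb, and Acta2 in neither. Acta2 encodes smooth muscle alpha actin (chromosome 19, 34241090 to 34255590, minus strand) and measured 16.7, 17.1 and 17.6 CPM in CTL, 20.1, 15.7 and 18.4 CPM in CL, and 16.9, 16.1 and 20.9 CPM in RL. The controls lay inside the range of both other groups, and the RL against CTL log2 fold change was 0.07 (95% interval -0.21 to 0.34, edgeR adjusted p = 0.887). Myh11, smooth muscle myosin heavy chain (chromosome 16, 14194535 to 14291372, minus strand), measured 19.2, 19.3 and 19.0 CPM in CTL, 16.6, 15.6 and 16.9 CPM in CL, and 16.8, 16.2 and 16.0 CPM in RL. Its 6 values from irradiated mice all lay below the 3 controls, and CL and RL interleaved. The RL against CTL log2 fold change was -0.23 ± 0.09 (SE), which did not pass (edgeR adjusted p = 0.320, DESeq2 adjusted p = 0.376).

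Tagln encodes transgelin, an actin-binding protein of smooth muscle (chromosome 9, 45929619 to 45936058, minus strand). It measured 10.7, 9.95 and 10.4 CPM in CTL, 9.05, 8.23 and 9.23 CPM in CL, and 8.83, 7.67 and 9.67 CPM in RL, again with every value of irradiated mice below the controls. The RL against CTL log2 fold change was -0.24 (95% interval -0.49 to 0.002, edgeR adjusted p = 0.423). Tagln overlaps Pcsk7 by 108 bases on the opposite strand, and the strand setting of the counting is not given in the sources used here. Cnn1 encodes calponin, a contractile regulator of mature smooth muscle (chromosome 9, 22099216 to 22109630, plus strand), and had 14 to 28 counts a library, the lowest of the set. It measured 0.427, 0.479 and 0.595 CPM in CTL, 0.411, 0.339 and 0.375 CPM in CL, and 0.614, 0.539 and 0.680 CPM in RL. RL overlapped CTL and lay above CL, and the RL against CTL log2 fold change was 0.29 with a 95% interval from -0.31 to 0.90 (edgeR adjusted p = 0.748), which at this depth covers values on both sides of 0.

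**Figure D2:**
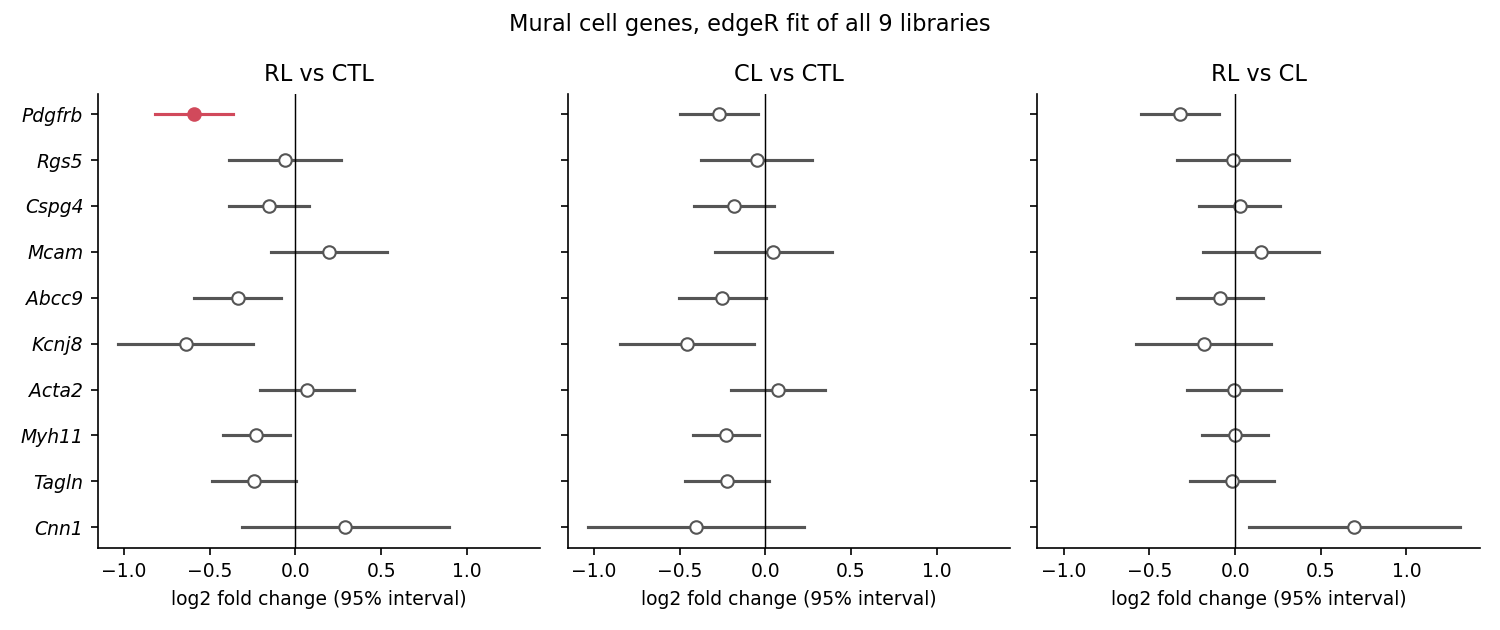
Log2 fold changes of the 10 genes in the 3 comparisons from the edgeR fit of all 9 libraries, with 95% intervals. The filled red point is the 1 that passed at an adjusted p under 0.05, Pdgfrb in RL against CTL at -0.59, and open points did not pass. RL vs CTL and CL vs CTL share their control libraries.

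Levels per length were compared as mean CPM per kb of exon over the 9 libraries. Rgs5 stood first at 52.4, Abcc9 followed at 34.5 and Acta2 at 8.07. Tagln at 4.68, Mcam at 4.53 and Pdgfrb at 4.06 came next, with library ranges that overlap (3.86 to 5.36, 3.46 to 5.33 and 3.10 to 4.997). Kcnj8 stood at 2.91, Myh11 at 2.28, Cspg4 at 0.827 and Cnn1 at 0.181. Abcc9 was therefore measured at a far higher level per kb than Kcnj8. Because muscle fibres also make Abcc9, these whole-muscle levels do not give the balance of the 2 subunits in mural cells. The ranges of Kcnj8 (2.11 to 4.24) and Myh11 (2.05 to 2.54) also overlapped.

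The opposite limb of irradiated mice, for which no dose is labelled, was compared with limbs of unirradiated mice to ask what differed outside the irradiated limb. None of the 10 genes passed (0 of 10), as 0% of all 14989 genes did in edgeR, where 997 genes (6.65%) had an unadjusted p under 0.05, and DESeq2 called 16 of 13075 genes (0.122%), 0 of them among the 10. All 3 CL libraries lay below all 3 CTL libraries for 5 of the 10, against 5.48% of all genes, and these were Pdgfrb, Abcc9, Myh11, Tagln and Cnn1. All 3 lay above for 0 of the 10, against 3.91% of all genes. At an unadjusted p under 0.05, 3 of the 10 were lower (Pdgfrb, Kcnj8 and Myh11), against 2.19% of all genes, and 0 were higher, against 4.46%. The fitted value was below 0 for 8 of the 10 and for 50.9% of all genes. The median log2 fold change of the 10 was -0.23, beside -0.004 for all genes.

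Set beside RL against CTL, with which this comparison shares its controls, Pdgfrb had log2 fold changes of -0.27 in CL and -0.59 in RL (edgeR adjusted p = 0.691 in CL). Kcnj8 had -0.46 and -0.64, Abcc9 -0.25 and -0.34, Myh11 -0.23 and -0.23, and Tagln -0.23 and -0.24. For Myh11 and Tagln both limbs of the irradiated mice thus stood at about the same distance from the controls. Without CL 1 the CL values were -0.37 for Pdgfrb, -0.31 for Kcnj8, -0.17 for Abcc9, -0.24 for Myh11 and -0.25 for Tagln, so the value of Abcc9 and that of Kcnj8 moved towards 0 and that of Pdgfrb away from it. The irradiated mice and the CTL mice are different animals, and mouse and treatment cannot be told apart here.

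The 2 limbs of the irradiated mice were compared to ask what differed within a mouse. The fits did not pair the limbs by mouse unless a mouse block is named. Of the 10 genes 0 passed in edgeR, where 0.0734% of all genes were called (0.0200% as lower and 0.0534% as higher), and 0 passed in DESeq2, where 0.219% were. At an unadjusted p under 0.05, 1 of the 10 was lower (2.19% of all genes), Pdgfrb, and 1 was higher (2.07% of all genes), Cnn1. The same genes were the 1 whose RL libraries all lay below CL (4.36% of all genes) and the 1 whose RL libraries all lay above (3.92%). The fitted value was below 0 for 6 of the 10 and for 51.7% of all genes. A fit of the 6 CL and RL libraries with the mouse as a block called 71 genes, none of them among the 10. The same 6 libraries without the block gave 4 genes, and the main fit of 9 libraries gave 11. The median log2 fold change of the 10 was -0.01, as it was for all genes.

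Pdgfrb was lower in the irradiated limb of 3 of 3 mice, with ratios of RL to CL of 0.675, 0.907 and 0.845. Its log2 fold change was -0.32 ± 0.10 (SE, 95% interval -0.55 to -0.10), with an edgeR adjusted p = 0.843, or 0.392 with the mouse as a block. Without CL 1 it was -0.20 (edgeR adjusted p = 0.670), so the library that stands apart also gave the largest difference. Cnn1 was higher in the irradiated limb of 3 of 3 mice, at ratios of 1.49, 1.59 and 1.82 and a log2 fold change of 0.70 (95% interval 0.08 to 1.31, edgeR adjusted p = 0.999), and it rests on 14 to 28 counts. Without CL 1 the Cnn1 value was 0.79 (edgeR adjusted p = 0.496), and with the mouse as a block it was 0.69 (edgeR adjusted p = 0.664).

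The other 8 genes lay between -0.18 (Kcnj8) and 0.15 (Mcam) in RL against CL. Myh11 had ratios of 1.01, 1.04 and 0.950 in the 3 mice, and Tagln ratios of 0.976, 0.932 and 1.05. Neither gene separated the limbs, in contrast to their position against CTL. Abcc9 had ratios of 1.12, 0.808 and 0.939 and Kcnj8 ratios of 1.08, 0.747 and 0.874. Both channel genes were higher in the irradiated limb of mouse 1, whose CL library stands apart, and lower in that of the other mice.

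Counts relative to Rgs5 in the same library do not depend on library scaling, and this ratio was chosen after the values were seen. Per 100 Rgs5 counts, Pdgfrb had 10.1, 12.2 and 10.7 counts in CTL, 13.0, 7.52 and 8.60 in CL, and 8.24, 6.76 and 7.95 in RL. The RL ratios lay below every CTL ratio (two-sided exact permutation p = 0.1, the smallest that 3 against 3 allows), and CL 1 had the highest ratio of all. Kcnj8 had 3.88, 4.83 and 2.86 in CTL against 2.81, 2.19 and 2.81 in RL (exact permutation p = 0.1). Abcc9 had 124.1, 146.3 and 136.0 in CTL against 131.2, 93.8 and 114.2 in RL, which overlapped (exact permutation p = 0.2). In RL the ratios of Pdgfrb and Kcnj8 to Rgs5 thus lay apart from the controls, whereas that of Abcc9 to Rgs5 was not separated from them. With 3 against 3, a p of 0.1 only restates that the values do not overlap, and it cannot reach the threshold. The p was computed for Pdgfrb, Kcnj8 and Abcc9 only. Against CL the RL ratios overlapped for each of these genes (exact permutation p = 0.4 for Pdgfrb, 0.3 for Kcnj8 and 0.8 for Abcc9).

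**Figure D3:**
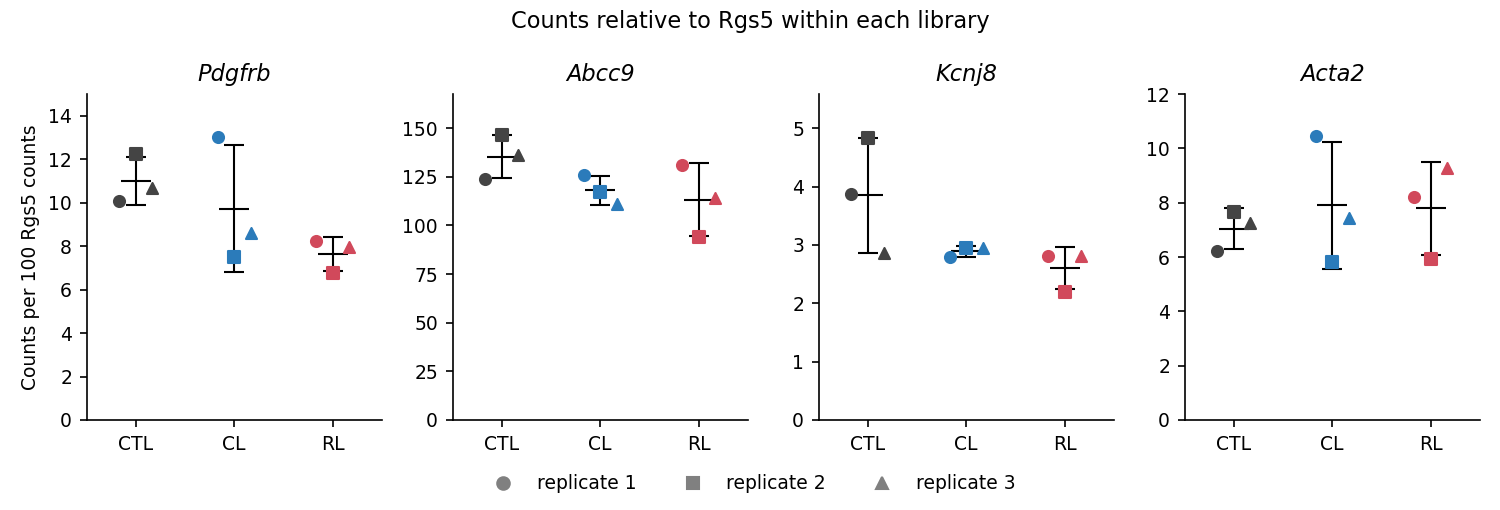
Counts of Pdgfrb, Abcc9, Kcnj8 and Acta2 per 100 counts of Rgs5 in the same library, with group mean and 1 SD (3 libraries a group) on linear axes from 0. For Pdgfrb the 3 RL points (6.76 to 8.24) lie below the 3 CTL points (10.1 to 12.2), and the Acta2 groups overlap.

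Genes of the same pathways gave the following values in RL against CTL. Of 5 further PDGF genes 0 passed. Pdgfb, the endothelial ligand of Pdgfrb, had a log2 fold change of 0.31 (edgeR adjusted p = 0.587) and Pdgfd, another ligand of this receptor, 0.35 (edgeR adjusted p = 0.446), with Pdgfd at 3.89, 2.65 and 4.14 CPM in CTL and 4.28, 4.39 and 4.95 CPM in RL. The 3 RL values of Pdgfd lay above the controls, as they did for 10.5% of all genes. Pdgfc had 0.24, Pdgfa -0.20 and Pdgfra, the alpha receptor of fibro-adipogenic progenitors, -0.25 (edgeR adjusted p = 0.481), so the sister receptor did not pass. In RL against CL, Pdgfd had 0.47 with its RL values again above (3.92% of all genes, edgeR adjusted p = 0.937).

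The channel partners Kcnj11, the pore subunit of the fibre channel, and Abcc8, the sulfonylurea receptor of other tissues, had log2 fold changes of -0.08 and -0.15 in RL against CTL, and 0 of 2 passed. The value of Kcnj11 rests on means of 35.7 CPM in CTL and 33.8 CPM in RL. Of SRF and its coactivators, which drive contractile genes, 0 of 4 passed, with -0.17 for Srf, -0.58 for Myocd (0.324 CPM in CTL and 0.216 CPM in RL), -0.19 for Mrtfa and -0.10 for Mrtfb. All 4 were below 0 (51.5% of all genes), and the RL libraries of Srf lay below its CTL libraries (10.2% of all genes).

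Of 20 further pericyte genes 0 passed, with a median of -0.17. The fitted value was below 0 for 14 of them, against 51.5% of all genes. All RL libraries lay below all CTL libraries for 5, against 10.2% of all genes. These 5 were Notch3, Heyl, Gja4, Gucy1a1 and Ednra, the last named after its values were seen. Heyl, a transcription factor that Notch receptors induce, measured 4.72, 4.26 and 4.16 CPM in CTL and 3.41, 2.40 and 2.26 CPM in RL, a log2 fold change of -0.71 (edgeR adjusted p = 0.124, DESeq2 adjusted p = 0.0683). Notch3, the Notch receptor of mural cells, measured 14.8, 18.7 and 17.1 CPM in CTL and 12.4, 13.7 and 12.4 CPM in RL, a log2 fold change of -0.39 (edgeR adjusted p = 0.237). Notch3 and Heyl were thus measured lower in every RL library without passing in the main fit. Heyl passed in 4 of 16 alternatives and Notch3 in 0. In RL against CL the values of Notch3 and Heyl were -0.38 and -0.51 (edgeR adjusted p = 0.902 and 0.960). Gja4, a gap junction protein that endothelium shares, had -0.70 and Gucy1a1, a nitric oxide receptor subunit, -0.46 (edgeR adjusted p = 0.306 and 0.314).

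Of 20 further smooth muscle genes 0 passed, with a median of -0.05. The fitted value was below 0 for 12 of them, against 51.5% of all genes. All RL libraries lay below all CTL libraries for 4, against 10.2% of all genes. Rasl12, a Ras-like protein, measured 3.44, 2.96 and 2.97 CPM in CTL and 1.59, 2.06 and 2.04 CPM in RL, a log2 fold change of -0.72 (edgeR adjusted p = 0.0948, DESeq2 adjusted p = 0.0639). Rasl12 passed in 3 of 16 alternatives. Smtn, the contractile protein smoothelin, had -0.28 and Mylk, the kinase that activates smooth muscle myosin, -0.23 (edgeR adjusted p = 0.278 and 0.337). Cald1, caldesmon, was the 1 gene of the list with all RL libraries above the controls (10.5% of all genes), at 0.25 (edgeR adjusted p = 0.374). The smooth muscle list thus held values on both sides of 0, as Acta2 and Myh11 did.

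**Figure D4:**
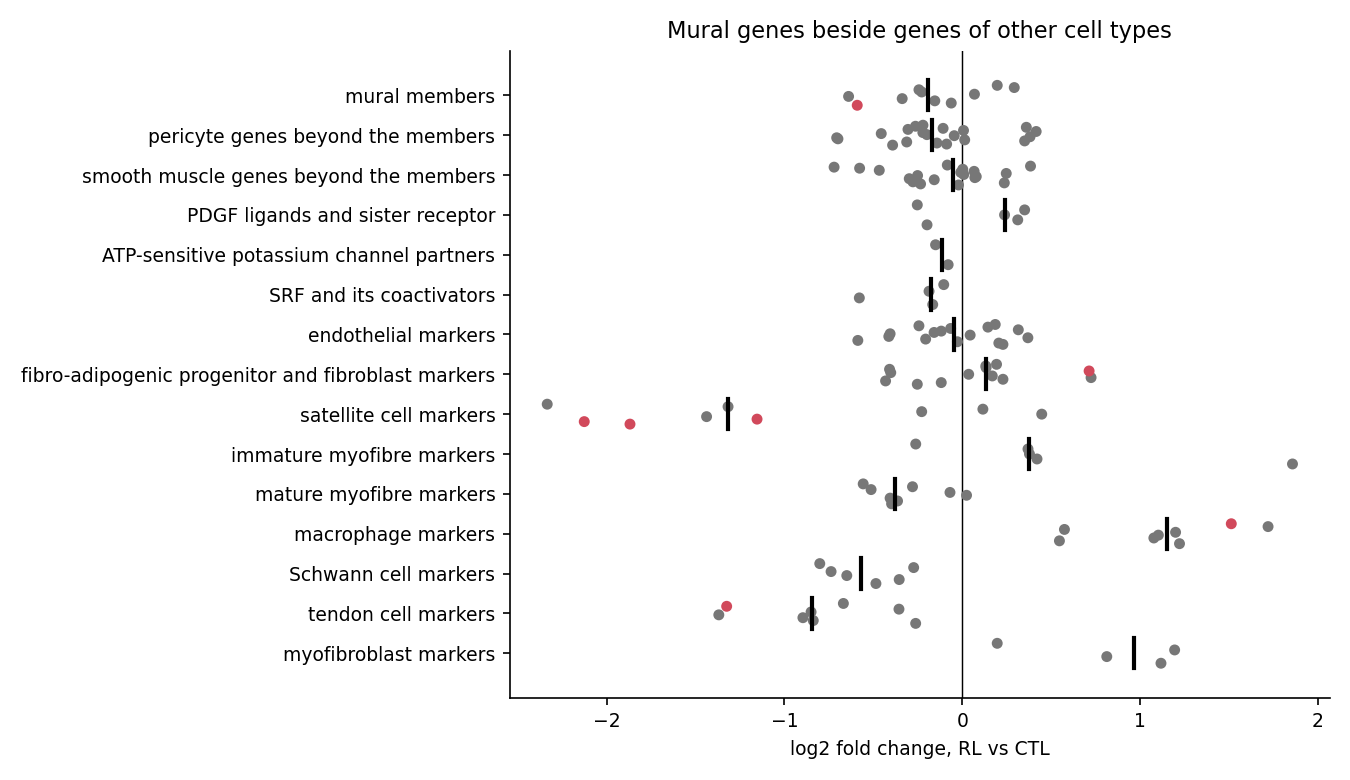
Log2 fold changes of RL against CTL for the mural genes and for the lists of other cell types. Each point is a gene, red points passed at an edgeR adjusted p under 0.05, and the vertical bar is the list median, which is -0.19 for the 10 mural genes, -0.05 for endothelial markers, -1.32 for satellite cell markers and 1.15 for macrophage markers.

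Markers of the cells that share the vessel or also carry Pdgfrb were set beside these values. Of 16 endothelial markers 0 passed in RL against CTL, with a median of -0.05 and summed levels of 346.4 to 375.8 CPM in CTL and 318.8 to 377.5 CPM in RL. The list held values in both directions. Pecam1, the endothelial adhesion molecule, had 0.23 (edgeR adjusted p = 0.497). By contrast, 4 markers had all RL libraries below all CTL libraries, against 10.2% of all genes. They were Tek, Flt1, Vwf and Ptprb, named after their values were seen. Of these Tek, the angiopoietin receptor, was measured at -0.59, as Pdgfrb was, without passing in edgeR (adjusted p = 0.0927). It passed in 5 of 16 alternatives, among them DESeq2 (adjusted p = 0.0162). The part of endothelial RNA in the lower Pdgfrb level was not tested. Of 13 markers of fibro-adipogenic progenitors and fibroblasts 1 rose, Lum, a collagen-binding proteoglycan, at 0.71 (edgeR adjusted p = 0.0448), and 12 did not pass. Their median was 0.13 and their sums were 1451 to 2038 CPM in CTL and 1659 to 1721 CPM in RL. Of 4 markers of myofibroblasts, which are activated fibroblasts, 0 passed. All 4 were above 0 with a median of 0.96, where 51.5% of all genes were below 0, and the groups overlapped for all 4. Their sums were 18.3 to 26.3 CPM in CTL and 25.4 to 63.8 CPM in RL, the highest in RL 1. Summed over the 10 mural genes the levels were 662.3 to 710.4 CPM in CTL, 539.3 to 675.4 CPM in CL and 569.7 to 614.6 CPM in RL, a sum in which Abcc9 and Rgs5 are the main terms.

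Lists of other cell types also held genes that passed in RL against CTL. Of 9 satellite cell markers 3 fell (Pax7, Calcr and Chodl, at -1.87, -2.13 and -1.15), and the list median was -1.32. The summed level of the 9 was 35.9 to 39.8 CPM in CTL and 28.7 to 35.1 CPM in RL. Sdc4 (means of 15.6 CPM in CTL and 16.9 CPM in RL) and Cdh15 (7.41 and 6.32 CPM) are the main terms of this sum. Of 8 macrophage markers 1 rose, the integrin Itgam at 1.51 (edgeR adjusted p = 0.0330), and the sums were 55.4 to 78.9 CPM in CTL and 99.0 to 138.6 CPM in RL. Of 8 tendon cell markers 1 fell in edgeR, the matrix protein Cilp2 at -1.33 (edgeR adjusted p = 0.0448), with sums of 128.8 to 177.7 CPM in CTL and 87.5 to 100.4 CPM in RL. DESeq2, which called 1.97% of all genes, called 5 satellite cell and 6 tendon cell markers lower and 4 macrophage markers higher. All 8 tendon cell markers were below 0 (51.5% of all genes), and all 8 macrophage markers were above 0. In RL against CL, 1 of the 9 satellite cell markers fell and 0 of the macrophage and tendon markers passed. In CL against CTL all 8 macrophage markers were above 0 without passing, where 50.9% of all genes were below 0, and the groups overlapped for all 8. Their sum was 162.5 CPM in CL 1, which stands apart, and 66.9 and 86.2 CPM in CL 2 and CL 3.

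Mature muscle fibre markers and Schwann cell markers were on the lower side in RL without passing in edgeR. Of 8 fibre markers 7 were below 0 in RL against CTL, against 51.5% of all genes. All RL libraries lay below all CTL libraries for 5 of them, against 10.2% of all genes. The median was -0.38, beside the -0.34 of Abcc9, which fibres also make. Their sums were 65220 to 73470 CPM in CTL, 55240 to 61380 CPM in CL and 47460 to 60300 CPM in RL, so the groups CTL and RL did not overlap. DESeq2 called 2 of them, Actn3 (adjusted p = 0.00915) and Casq1 (adjusted p = 0.00326), named after their values were seen. Of 6 Schwann cell markers 6 were below 0 (51.5% of all genes), with a median of -0.57 and sums of 25.6 to 27.5 CPM in CTL and 14.95 to 22.3 CPM in RL. None of the markers of these lists was at 0 in all libraries, and their part in the lower levels of Pdgfrb and Abcc9 was not tested.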

How the data were processed

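Total RNA from 9 gastrocnemius samples of 6 mice was sequenced with a stranded total RNA kit, per the labels' protocols. The authors deposited unnormalised read counts for every gene, with GRCm38.p5 and DESeq2 per the submitters' processing notes. Aligner, counter, strand setting and annotation were not given in the sources used here. For each comparison the authors deposited their own log2 fold change with raw and adjusted p-values. The other deposited tables were not used. Date-named rows (26, at most 0.0536% of counts) were left out, and 21023 rows had no count.

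Counts were tested with edgeR 4.0.16 in R 4.3.3 (trimmed mean of M values, expression filter by group, quasi-likelihood F test, all 9 libraries in 1 fit without covariates), and DESeq2 1.42.0 was an alternative. The standard error is the absolute log2 fold change over the square root of F. CPM are counts over scaled library totals. Members and lists were chosen with earlier results of these data known. Named are the 10 members, up to 4 genes of each mural list by smallest p, and all PDGF, channel and SRF genes. Of the other lists, called genes and some preset genes are named. In the comparisons with CL, the remaining named genes are given by their lists only. The 15 lists hold 141 entries.

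Replicate pairs differed by more than counting noise (smallest chi-square per degree of freedom 16.4 over 11161 genes). Same-numbered CL and RL libraries share a mouse by the labels' mouse numbers, and their deviations from the group means correlated at 0.295, 0.428 and 0.0731. Pairs from different mice ran from -0.358 to 0.0955, so the value of the third mouse lay within their range. Coordinates are from GENCODE vM21 on GRCm38. The procedure was tested on simulated data. Alternatives were other size factors, mitochondrial genes removed, no filter, fewer libraries, a replicate block, and leaving out each library or 1 mouse.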

Additional observations from a re-analysis of the deposited data

How the results depend on the processing

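The call of Pdgfrb in RL against CTL was kept in 9 of 16 alternatives, as given above, and Kcnj8 was called in 2. The median of the 10 genes ran from -0.23 to -0.17 in RL against CTL, from -0.25 to -0.18 in CL against CTL, and from -0.0315 to 0.0258 in RL against CL, where its sign changed. Over the alternatives, 438 values of single members kept their direction and their side of the threshold, 33 changed sign, 2 became called and 7 lost a call, and of the other named genes 879 kept both, 3 changed sign, 45 became called and 48 lost a call. The count of genes called was less stable. In RL against CTL it went from 77 to 896 with no filter on low counts, 505 with the 6 libraries compared, 290 without the mouse of CL 1 and RL 1, 335 with the replicate number as a block and 329 with DESeq2, and from 2 to 600 when 1 library was left out. In CL against CTL it went from 0 to 714 with no filter, 3 with the number as a block and 16 with DESeq2, and from 0 to 1 when 1 library was left out. In RL against CL it went from 11 to 406 with no filter, 4 with the 6 libraries, 20 without the mouse, 71 with the mouse as a block and 39 with DESeq2, and from 1 to 136 when 1 library was left out. The cause was not tested.

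Signs changed mostly for log2 fold changes near 0, with Anpep in RL against CL, at -0.47, as an exception. Without the mouse of CL 1 and RL 1 they were 0.0247 for Rgs5 in RL against CTL, 0.0778 for Rgs5, -0.0097 for Acta2 and -0.0937 for Mcam in CL against CTL, and 0.12 for Acta2 in RL against CL. Myh11 in RL against CL was -3.3e-05 with mitochondrial genes removed, -0.0011 with the 6 libraries, -0.0070 without the mouse and -0.00037 with the mouse as a replicate block. When 1 library was left out, the values in RL against CTL ran from -0.17 to 0.0224 for Rgs5, -0.0497 to 0.15 for Acta2, -0.37 to 0.19 for Abcc8 and -0.42 to 0.0607 for Mrtfa. In CL against CTL they ran from -0.15 to 0.0737 for Rgs5, -0.0140 to 0.18 for Acta2 and -0.10 to 0.15 for Mcam. In RL against CL they ran from -0.13 to 0.0906 for Rgs5, -0.0269 to 0.11 for Cspg4, -0.16 to 0.0117 for Abcc9, -0.13 to 0.10 for Acta2, -0.0380 to 0.0326 for Myh11, -0.10 to 0.0678 for Tagln and -0.69 to 0.0270 for Anpep. CTL libraries share with the others only a number, so the number block there tests no pairing, and the mouse block changed no call of the 10 genes. Depth limits Cnn1, at 14 to 28 counts, and 3 libraries a group limit every comparison.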
